A study of Mus musculus with 3 samples.

Results

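The nuclear genes of oxidative phosphorylation were examined in single cells of the mouse duodenum. They were taken by symbol: the NADH dehydrogenase families Ndufa, Ndufb, Ndufc, Ndufs and Ndufv, the cytochrome bc1 family Uqcr, the cytochrome c oxidase families Cox4i, Cox5, Cox6, Cox7 and Cox8, and the ATP synthase family Atp5. A symbol had to reach 100 unique molecular identifiers (UMIs, counted RNA molecules) over all files. Of 90 such symbols 85 reached it, among 32285 genes in the files. They comprised 37 genes of complex I, 8 Ndufaf genes for complex I assembly, 8 genes of complex III, 15 of complex IV and 17 of complex V. Ndufa4 was placed with complex IV, of which its protein is known to be a subunit. The symbols below the limit were Cox8b and Cox8c with 0 UMIs, Cox7b2 with 3, Ndufa4l2 with 4 and Cox4i2 with 28, while the lowest above it were Cox6b2 with 583, Ndufaf6 with 2928 and Ndufaf1 with 3322.

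Male C57B6/J mice had received saline or preformed fibrils (PFF) of mouse recombinant alpha-synuclein in the duodenal wall, and cells were taken on day 30. Dissociated cells were enriched in parallel by CD45 sorting and by CD11b beads, and both fractions were pooled for droplet sequencing of transcript 3' ends. The labels give 2 saline libraries, saline 1 from batch 1 and saline 2 from batch 2, and a single PFF library, PFF 1 from batch 1. Age and the number of mice per library were not given in the sources used here, and nothing says that the libraries came from separate cohorts, so p-values measure only the spread between these libraries.

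Oxidative phosphorylation passes electrons from NADH and succinate through complexes I to IV to oxygen, and the proton gradient so built drives ATP synthase, complex V. Most subunits are nuclear genes, while the mitochondrial genome encodes core subunits of complexes I, III, IV and V. Several subunits exist as isoforms from separate genes, some of them known as muscle forms. Absorptive enterocytes, with their high rate of active transport, are known to be rich in mitochondria, whereas resting lymphocytes hold little cytoplasm.

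Levels are given as CPM, the UMIs of a gene in a cell class of a library, scaled to 1000000 UMIs of all genes. With 3' counting a transcript is counted once whatever its length. The saline files shared 3 wells with identical counts in 1509, 3648 and 8732 cells. Those wells were counted once, as shared wells 1 to 3, and kept out of the main tests, which used PFF 1 and, from each saline file, only the well not found in the other. After removal of barcodes with over 15% mitochondrial UMIs, 5459 cells of saline 1, 4332 of saline 2 and 12263 of PFF 1 remained, with medians of 3241, 10130 and 9111 UMIs. Over this limit were 3.04%, 22.7% and 20.1% of their barcodes, and 52.2% of those of shared well 2. The part of this uneven loss in the comparisons was not tested. PFF 1 and saline 2 also had 119 barcodes in common, against 1 to 42 for the other pairs. Cell classes were set from marker genes that include no member, and cells that met the rules of 2 classes were left out. Cells with myeloid markers that met the rule for epithelium or plasmacytoid dendritic cells were not counted as myeloid, so this pairing was not left out. T cells, by their Cd3 genes, made up most of the cells, with 4937, 3097 and 9900 in saline 1, saline 2 and PFF 1. The other classes had 53, 37 and 181 cycling T cells, 42, 87 and 542 B cells, 31, 120 and 195 myeloid cells, 83, 16 and 101 plasmacytoid dendritic cells (pDC), and 36, 495 and 431 epithelial cells, the last present although the labels describe immune cells. The class rules used these same markers, so their sums over the 3 libraries describe the classes and do not test them. Cd3 genes stood at 4352 CPM in T cells and at 38.5 CPM or less in B, myeloid, plasmacytoid and epithelial cells. The 8 epithelial markers stood at 9544 CPM in epithelium and 353 CPM or less in the immune classes. The 7 myeloid markers differed less, with 11980 CPM in myeloid, 5421 CPM in plasmacytoid and 2671 CPM in T cells.

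Promoters are shown for members of 2 isoform families whose levels in the cell classes are described below. They are bases 250 to 31 before the RefSeq start of each gene (GRCm38.p6), 5' to 3' on the gene's strand: Cox7a1 at chr7:30183921-30184140 (+), its ubiquitous counterpart Cox7a2 at chr9:79759884-79760103 (-), and the 3 genes for the ATP synthase c subunit, Atp5g1 at chr11:96075662-96075881 (-), Atp5g2 at chr15:102671078-102671297 (-) and Atp5g3 at chr2:73911357-73911576 (-). Capitals mark a match to a motif of NRF1, a transcription factor known for nuclear respiratory genes.
Cox7a1: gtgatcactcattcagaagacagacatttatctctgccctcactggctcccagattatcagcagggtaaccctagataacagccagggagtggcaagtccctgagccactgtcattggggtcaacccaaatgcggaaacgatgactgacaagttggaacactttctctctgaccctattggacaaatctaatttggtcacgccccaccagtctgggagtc
Cox7a2: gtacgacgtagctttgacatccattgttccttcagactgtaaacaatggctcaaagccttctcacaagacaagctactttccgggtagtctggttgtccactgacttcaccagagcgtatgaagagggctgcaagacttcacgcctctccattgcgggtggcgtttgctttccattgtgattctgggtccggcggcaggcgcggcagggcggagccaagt
Atp5g1: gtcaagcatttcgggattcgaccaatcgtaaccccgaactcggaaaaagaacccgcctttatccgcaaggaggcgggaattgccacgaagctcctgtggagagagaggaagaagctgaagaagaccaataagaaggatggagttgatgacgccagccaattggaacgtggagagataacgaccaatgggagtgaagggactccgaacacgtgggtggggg
Atp5g2: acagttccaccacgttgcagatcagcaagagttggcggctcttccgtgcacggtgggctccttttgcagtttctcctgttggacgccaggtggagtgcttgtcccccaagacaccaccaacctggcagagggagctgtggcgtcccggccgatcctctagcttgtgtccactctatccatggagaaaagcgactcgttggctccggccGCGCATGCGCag
Atp5g3: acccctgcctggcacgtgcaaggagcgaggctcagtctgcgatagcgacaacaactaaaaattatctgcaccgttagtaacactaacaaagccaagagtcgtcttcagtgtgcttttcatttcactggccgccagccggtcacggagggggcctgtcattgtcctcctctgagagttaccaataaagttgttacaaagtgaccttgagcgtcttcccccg

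A search of promoters of 300 bases (250 before to 50 after the start) on both strands used the NRF1 motif GCGCATGCG, the ETS motif CCGGAAG, the YY1 motif AAGATGGC and the CRE motif TGACGTCA. Promoters were matched by symbol for 70 of the 85 members, giving 75 promoters. GCGCATGCG was in 10 of these 75 (13.3%) and in 1.75% of all 32851 promoters. CCGGAAG was in 17 (22.7%, against 8.86%), AAGATGGC in 10 (13.3%, against 2.75%) and TGACGTCA in 4 (5.33%, against 1.79%). The member promoters had a median GC content of 57.7%, against 52.7% for all, so base composition differed as well. Of the promoters printed, only that of Atp5g2 held a match, where GCGCATGCG lay on both strands in overlapping positions starting 42 and 41 bases before the start. Members with an NRF1 match included Uqcr11, Uqcrc1, Ndufa8, Atp5k and Cox6a1. A match describes letters and does not show binding.

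Epithelial cells devoted the largest share of their RNA to these genes, and cycling T cells came next among the immune classes. Summed over the 85 members, the share of all UMIs in epithelium was 2.97% in saline 1, 3.83% in saline 2 and 3.95% in PFF 1. In T cells the shares were 1.33%, 1.39% and 1.15%. Every epithelial value lay above every value of the other classes. Cycling T cells stood at 1.87%, 1.88% and 1.63%, above T cells in each library. The means ± SD over the 3 libraries, saline and PFF together, were 3.58 ± 0.535% in epithelium, 1.79 ± 0.139% in cycling T cells, 1.65 ± 0.226% in plasmacytoid dendritic cells, 1.51 ± 0.184% in myeloid cells, 1.35 ± 0.0909% in B cells and 1.29 ± 0.122% in T cells (n = 3 each). Below epithelium, neighbours in this order overlapped.

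The shared wells gave values of the same order, 1.43%, 1.34% and 1.17% in T cells and 4.27%, 3.94% and 2.00% in epithelium, the last from 11 cells. The difference between T cells and epithelium held for each respiratory complex. Mean shares went from 0.413% to 0.902% of UMIs for complex I, from 0.112% to 0.412% for complex III, from 0.353% to 1.10% for complex IV and from 0.391% to 1.14% for complex V. The 8 assembly genes were the exception, with 0.0230% in T cells and 0.0212% in epithelium. Transcripts of the mitochondrial genome took 1.51%, 2.48% and 2.42% of UMIs in T cells and 8.89%, 7.29% and 6.78% in epithelium. The filter at 15% bounds these values from above. The ratio of nuclear member UMIs to mitochondrial UMIs was 0.878, 0.561 and 0.476 in T cells and 0.334, 0.525 and 0.582 in epithelium, so the groups overlapped on this measure.

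**Figure D1:**
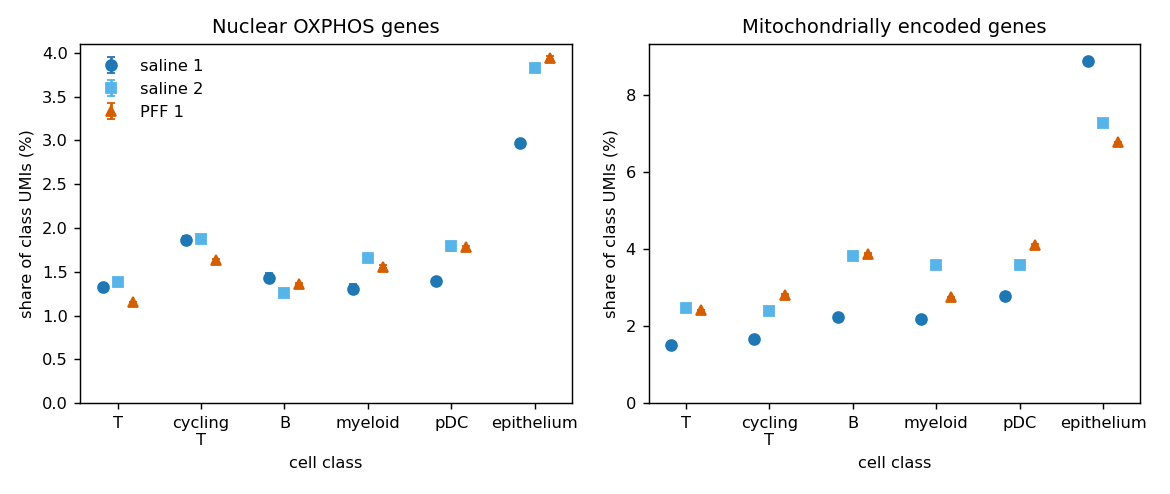
Share of a class's UMIs (%) taken by the 85 nuclear members (left) and by the mitochondrially encoded genes (right) in 6 cell classes. Symbols are the 3 libraries and bars are exact binomial 95% intervals, mostly smaller than the symbols. Epithelium is highest for both, between 2.97% and 3.95% on the left.

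The most abundant members of each complex were mostly small subunits. Cox8a, a small complex IV subunit, reached 669, 680 and 483 CPM in T cells (saline 1, saline 2, PFF 1) and 783, 1447 and 1494 CPM in epithelium. Cox6c, another small subunit, had 499, 455 and 332 CPM in T cells and 1331, 1426 and 1467 CPM in epithelium. For Atp5e, the epsilon subunit of ATP synthase, the levels were 625, 638 and 488 CPM in T cells and 648, 1010 and 986 CPM in epithelium. In all 3 genes every epithelial value lay above every T cell value, by a small margin for Atp5e in saline 1. Atp5l, subunit g of ATP synthase, stood at 365, 351 and 280.0 CPM in T cells and 651, 849 and 866 CPM in epithelium. In complex III, Uqcrh (the hinge protein) had 346, 363 and 311 CPM in T cells and 641, 850 and 897 CPM in epithelium. Uqcrq, a small subunit, had 182, 185 and 149 CPM in T cells and 719, 884 and 868 CPM in epithelium. These 3 genes did not overlap between both classes either. The leaders of complex I were Ndufb1-ps, named as a pseudogene in the annotation, with 316, 283 and 207 CPM in T cells, and Ndufa13, an accessory subunit, with 280, 331 and 315 CPM. The assembly genes were an order lower, led by Ndufaf8 at 70.6, 68.96 and 56.3 CPM and Ndufaf2 at 50.1, 43.1 and 42.6 CPM in T cells. Ndufaf8 in epithelium, at 64.1, 75.6 and 75.1 CPM, overlapped its T cell values.

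Gene by gene, epithelium had the highest mean level of the 6 classes for 74 of the 85 members, and for 61 it was highest in every library. For 55 members every epithelial library lay above every library of every other class. The shares of all genes with these orders are not given here. Of the 11 exceptions 6 were assembly genes: Ndufaf1, Ndufaf2 and Ndufaf6 were highest in cycling T cells, Ndufaf5 in T cells, Ndufaf3 in B cells and Ndufaf7 in myeloid cells. Cox6b2, Ndufb1-ps and Cox7a2l were also highest in myeloid cells. Atp5g2 was highest in B cells and Cox6a2 in plasmacytoid dendritic cells. T cells had the lowest mean for 36 members, B cells for 22 and myeloid cells for 20. Cycling T cells were next to the top class for 46 members and plasmacytoid dendritic cells for 16.

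Against T cells, epithelium was tested with edgeR's quasi-likelihood test over 12837 genes with the library as a block, and genes with a Benjamini-Hochberg adjusted p below 0.05 were called. Called higher were 78 of the 85 members and called lower 2, where 37.3% of all genes tested were called higher and 31.9% lower. The median log2 fold change was 2.00 for the members and 0.04 for all genes. All 37 complex I genes rose (median 1.93), as did all 8 of complex III (2.63), all 17 of complex V (2.23) and 13 of 15 of complex IV (2.36). Of the 8 assembly genes 3 rose and 2 fell (median 0.42). The fit rescales libraries by trimmed means (TMM), which set epithelial folds above the plain ratio of CPM by a median of 0.57 (log2). On plain CPM the members' median was 1.43, and 78 of 85 were above 0. In 72 members the CPM values of both classes did not overlap, and the share of all genes without overlap is not given here.

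The largest rise was that of Cox7a1, the muscle and brown fat form of a complex IV subunit. Its levels were 252, 252 and 231 CPM in epithelium and 2.59, 3.25 and 2.15 CPM in T cells. The log2 fold change was 7.11 ± 0.25 (standard error, adjusted p 1.14e-14, edgeR quasi-likelihood test with Benjamini-Hochberg adjustment). Next came genes of complex III and the ATP synthase. Uqcrfs1, the Rieske iron-sulfur subunit, had 280, 288 and 288 CPM in epithelium and 40.2, 54.3 and 43.2 CPM in T cells (log2 3.21). Uqcr11 had 380, 722 and 784 CPM in epithelium against 117, 115 and 88.0 CPM (log2 3.12), and Uqcrq rose by 2.83. Uqcrc1, a core subunit, rose by 2.88, Atp5o, which links the catalytic head of ATP synthase to its stalk, by 2.97, and Ndufab1, the acyl carrier protein of complex I, by 2.81. Ndufa4 rose by 2.79 ± 0.22. Cox4i1, a regulatory subunit of complex IV, had 1007, 1213 and 1191 CPM in epithelium and 400, 436 and 411 CPM in T cells (log2 2.02 ± 0.18).

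The members that fell were Ndufaf5 and Ndufaf7, factors known to modify core subunits of complex I during assembly. Ndufaf5 stood at 11.5, 9.51 and 10.0 CPM in epithelium and 20.8, 20.1 and 22.5 CPM in T cells (log2 -0.55, adjusted p 0.0278, edgeR). Ndufaf7 stood at 11.5, 13.4 and 15.99 CPM against 31.6, 33.2 and 27.1 CPM (log2 -0.53, adjusted p 0.0402, edgeR). Neither overlapped between the classes, but with the relative log expression scaling (RLE) 80 members rose and 0 were called lower by edgeR, and 0 were also lower without saline 2 and without PFF 1. Not called were Ndufaf1, Ndufaf2 and Ndufaf3, Cox6a2 (log2 -0.999, adjusted p 0.18, edgeR) and Cox7a2l (log2 0.35, adjusted p 0.0739, edgeR). RNA of 7 enterocyte marker genes in T cells was 0.164%, 0.693% and 0.379% of its level in epithelium of the same library, and its part in the T cell levels was not tested.

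**Figure D2:**
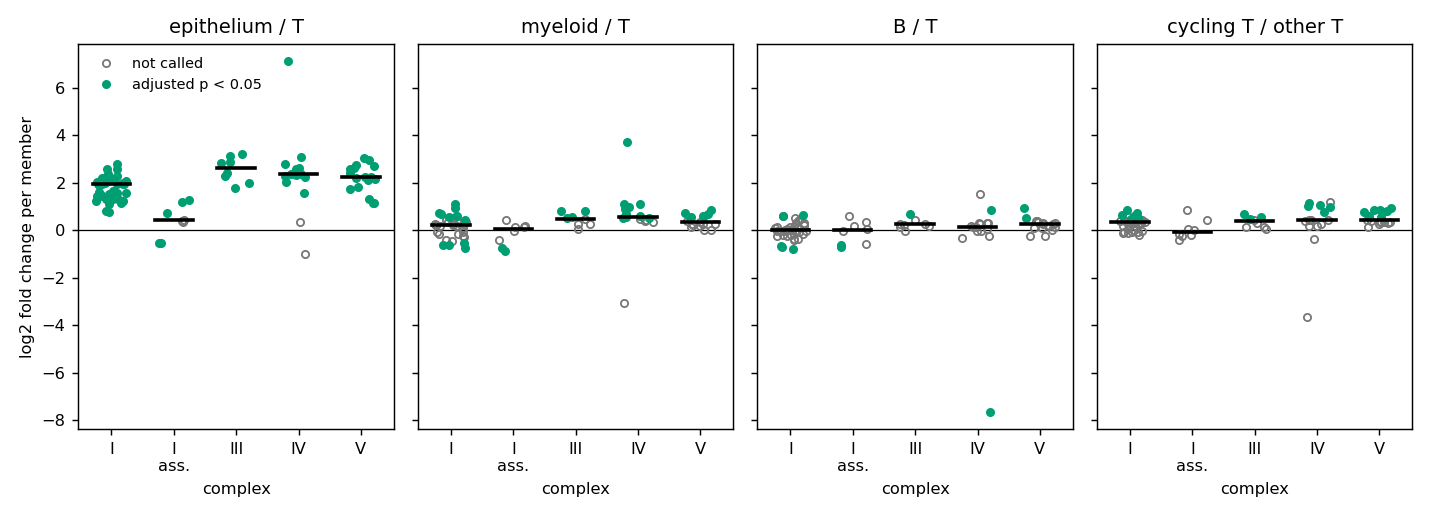
Log2 fold change of each member against T cells, by complex ("I ass." is complex I assembly), for epithelium, myeloid cells, B cells and cycling T cells. Points are genes, filled where called by edgeR (adjusted p below 0.05), and black lines are medians. Complex III has the highest median in epithelium (2.63), and the assembly genes the lowest (0.42).

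Within epithelium, these transcripts took a far larger share of UMIs in enterocytes than in goblet cells, the mucus-secreting cells. Both were compared in the 3 wells with at least 15 cells of each, saline 2, PFF 1 and shared well 2. These held 399, 345 and 708 enterocytes and 53, 38 and 30 goblet cells. Median UMIs per cell were 4826, 2624 and 14311.5 in enterocytes and 32187, 40180.5 and 10546.5 in goblet cells. Shares of UMIs are not amounts per cell, and the part of depth was not tested. The members took 4.45%, 4.94% and 4.06% of UMIs in enterocytes and 0.921%, 0.882% and 1.27% in goblet cells, and the goblet value was below that of T cells in each of the 3 wells. Of the 84 members tested 78 were called higher in enterocytes and 0 lower by edgeR, where 19.6% of all 11673 genes were called higher and 14.8% lower. All 84 fold changes were above 0, with a median log2 of 1.82 (0.07 for all genes). The values of 82 members did not overlap, and the share of all genes without overlap is not given here. DESeq2 also called no member lower. Mucus genes led by Zg16, Tff3 and Fcgbp dominated the goblet cells: the 10 most abundant genes took 43.2%, 42.5% and 42.0% of their UMIs, against 15.3%, 12.3% and 16.9% in enterocytes, and on plain CPM the median was 2.23.

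Ndufa4 reached 984, 1183 and 912 CPM in enterocytes and 119, 124 and 171 CPM in goblet cells (log2 2.51 ± 0.24). Cox7a1 had 325, 317 and 376 CPM in enterocytes and 17.6, 14.4 and 67.5 CPM in goblet cells (log2 3.33 ± 0.36). Ndufab1 had 386, 470 and 313 CPM in enterocytes and 44.5, 50.8 and 39.0 CPM in goblet cells (log2 2.70). None of these 3 overlapped between the cell types. Ndufaf4, an assembly factor, had 49.2, 61.3 and 21.1 CPM against 3.76, 3.46 and 5.19 CPM (log2 3.20). The other large rises were those of Ndufa5 (2.84), Ndufb6 (2.41) and Ndufa10 (2.37), accessory subunits of complex I, and of Atp5o (2.38). Cox7a2l, which did not pass the test between epithelium and T cells, rose by 1.83 between enterocytes and goblet cells. Enterocyte marker RNA stood in goblet cells at 8.07%, 12.5% and 15.9% of its level in epithelium, and its part in the goblet levels was not tested.

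**Figure D3:**
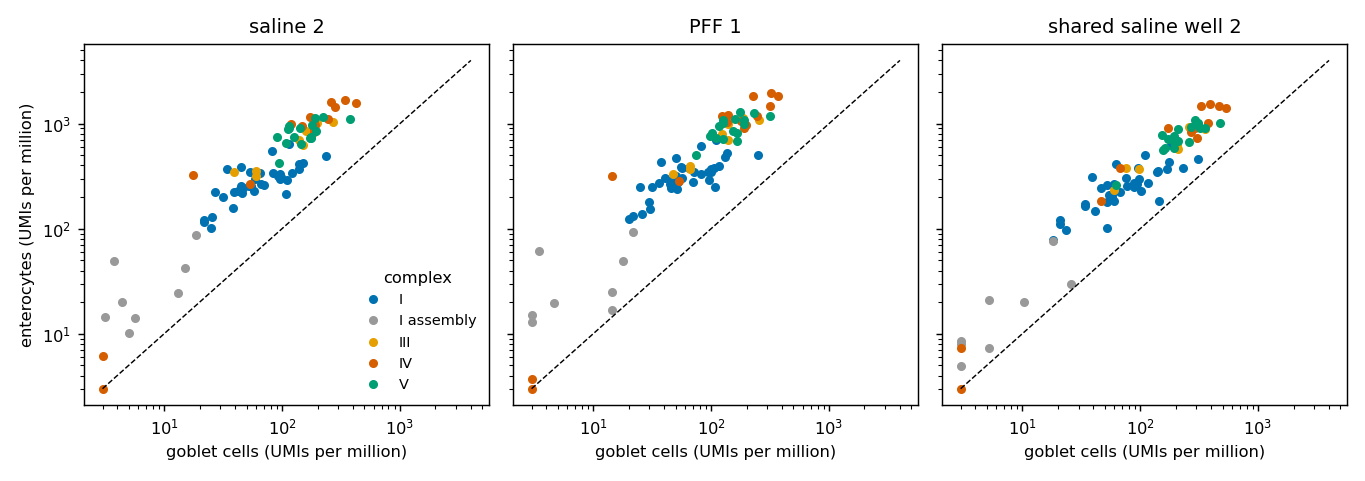
Level of each member (CPM, log axes, values under 3 drawn at 3) in goblet cells (x) and enterocytes (y) in 3 wells, coloured by complex. The dashed line marks equal levels. Nearly all points lie above it, as the median log2 fold change of 1.82 states.

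Genes of the surrounding pathways were taken from lists of mitochondrial metabolism. Of all genes tested, 37.3% were called higher in epithelium than in T cells and 31.9% lower. Between epithelium and T cells all 13 mitochondrially encoded subunits rose (median log2 2.61), with mt-Nd3 at 3.20 and mt-Nd4l at 3.12, as did all 4 genes of complex II (Sdhd 3.18, Sdhb 2.79) and all 6 of cytochrome c and the quinone pool (Cycs 3.64). All 16 genes of the citric acid cycle rose, led by Mdh2 (3.82) and Cs (2.60), and all 12 of fatty acid oxidation, led by Hadh (4.24) and Cpt2 (3.26). Of 12 glycolysis genes 11 rose (Hk2 4.21, Tpi1 3.701) and Hk1 fell by 1.89. The carriers and import genes rose in 9 of 10 (Slc25a5 3.28), and Slc25a4, another ADP/ATP carrier, fell by 1.49. Of 14 genes for complex IV and supercomplex assembly 12 rose, Sco2 by 2.80.

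Among 10 regulators of mitochondrial genes 4 rose and 2 fell, where 37.3% of all genes were called higher and 31.9% lower. Ppargc1a, the coactivator PGC-1alpha, had 275, 109 and 103 CPM in epithelium and 0.404, 0.567 and 0.167 CPM in T cells (log2 9.21 ± 0.37). It stood at 142, 139 and 192 CPM in enterocytes and 8.15, 10.96 and 57.1 CPM in goblet cells of saline 2, PFF 1 and shared well 2. Esrra, a nuclear receptor partner of it, rose by 2.42 in epithelium against T cells. Nrf1, whose motif was searched above, went the other way with 46.1, 46.4 and 50.8 CPM in epithelium and 119, 107 and 139 CPM in T cells (log2 -0.78), and Gabpb1, of the ETS factor GABP, fell by 0.64. Between enterocytes and goblet cells, where 19.6% of all genes were called higher and 14.8% lower, the regulators rose in 5 of 10. Of the other lists, the mitochondrial subunits rose in 13 of 13 (median 1.25) and complex II in 4 of 4. The citric acid cycle rose in 14 of 16 and fatty acid oxidation in 11 of 12. In glycolysis 8 of 12 rose, while Hk2 and Hk1 were lower in enterocytes, by 4.59 and 2.10 (log2).

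Several isoforms had their own cell class. Cox6a2, known as the heart and muscle form of a complex IV subunit, was high in plasmacytoid dendritic cells. Its levels there were 827, 988 and 1237 CPM in saline 1, saline 2 and PFF 1. In T cells they were 4.61, 0.627 and 2.50 CPM, in epithelium 1.65, 0.533 and 0.761 CPM, in myeloid cells 0, 0 and 0.401 CPM, and in B cells 0 in all 3. No value of another class came near the plasmacytoid ones. The log2 fold change against T cells was 8.86 ± 0.42 (adjusted p 1.03e-11, edgeR), and pooled over the 3 libraries the plasmacytoid level of 1116 CPM was at least 2039-fold higher than the floor of 3 UMIs in B cells over the group, 0.547 CPM.

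Over all wells Cox6a2 had 3922 UMIs in 275 of 319 plasmacytoid cells. In T cells it had 624 UMIs, and 452 of them (72.4%) were in the 176 T cells that also held a UMI of Siglech, a plasmacytoid marker. Its counterpart Cox6a1, the ubiquitous form, did not follow. Cox6a1 had 202, 253 and 206 CPM in plasmacytoid cells, 203, 201 and 154 CPM in T cells and 604, 735 and 735 CPM in epithelium. Cox6a2 thus made up 80.4% (exact 95% interval 76.9 to 83.5%), 79.6% (74.5 to 84.1%) and 85.7% (84.2 to 87.2%) of the UMIs of both genes in plasmacytoid cells and 2.22%, 0.311% and 1.60% in T cells. In shared well 3 the plasmacytoid share was 86.1%. These intervals cover counting error only.

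Cox7a1 was the corresponding gene of epithelium. Of the UMIs of Cox7a1 and Cox7a2 it took 30.0% (26.1 to 34.2%), 22.9% (22.2 to 23.7%) and 21.4% (20.6 to 22.3%) in epithelium, and 1.05%, 1.26% and 0.973% in T cells. Within epithelium it took 25.2%, 23.0% and 27.5% in enterocytes of saline 2, PFF 1 and shared well 2, and 8.41% (5.66 to 11.9%), 7.42% (4.86 to 10.8%) and 17.8% (11.98 to 24.99%) in goblet cells. Cox7a2 itself was also higher in epithelium, with 587, 846 and 847 CPM against 245, 254 and 218 CPM in T cells. Cox7a2l, a related protein that joins complexes III and IV into supercomplexes and is known in a shortened form in C57BL/6 mice, had another pattern. It was highest in myeloid cells at 334, 430 and 417 CPM, against 220, 246 and 241 CPM in T cells, 145, 237 and 231 CPM in epithelium and 183, 209 and 178 CPM in cycling T cells. In these 3 libraries the myeloid values of Cox7a2l did not overlap those of the other classes.

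The ATP synthase c subunit is made from 3 genes whose mature protein is known to be the same. In T cells Atp5g2 led, with 262, 230 and 189 CPM, ahead of Atp5g3 (162, 164 and 137 CPM) and Atp5g1 (126, 145 and 113 CPM). In epithelium Atp5g3 led, with 970, 771 and 854 CPM, ahead of Atp5g1 (339, 728 and 743 CPM) and Atp5g2 (220, 367 and 403 CPM). Atp5g2 took 47.7%, 42.7% and 43.0% of the UMIs of the 3 genes in T cells, 61.7%, 54.2% and 51.3% in B cells and 14.4%, 19.7% and 20.2% in epithelium, without overlap between the classes. The log2 fold changes in epithelium against T cells were 3.06 ± 0.18 for Atp5g3, 2.76 ± 0.22 for Atp5g1 and 1.16 ± 0.21 for Atp5g2, whose CPM values overlapped.

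Cox6b2, known as the testis form, was low everywhere. It reached 9.98, 5.79 and 8.82 CPM in myeloid cells and 0.980, 0.686 and 0.521 CPM in T cells (log2 3.71 ± 0.48, edgeR), which made it the member with the largest rise in myeloid cells. Over these libraries together Cox6b2 had only 36 UMIs in myeloid cells and 93 in T cells. Its ubiquitous counterpart Cox6b1 had 280, 406 and 371 CPM in myeloid cells and 232, 280 and 235 CPM in T cells. Cox4i2, Ndufa4l2, Cox8b and Cox8c stayed below the limit of 100 UMIs, so Cox4i1, Ndufa4 and Cox8a supplied nearly all UMIs of their families.

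**Figure D4:**
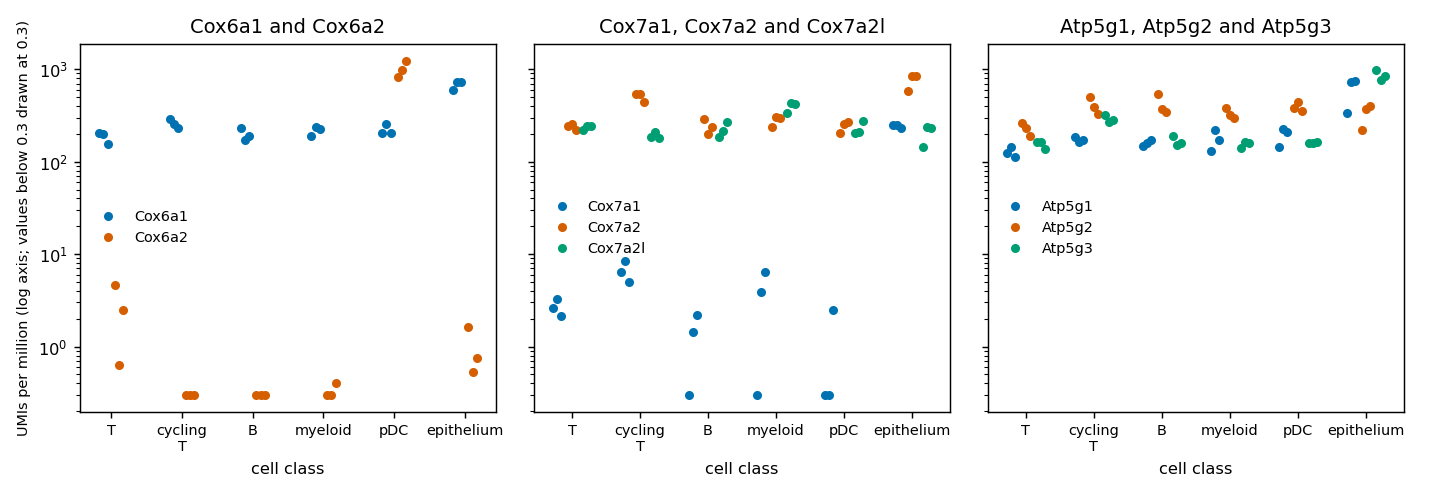
Levels (CPM, log axis, values below 0.3 drawn at 0.3) of 3 isoform families in 6 cell classes; each dot is a library in the order saline 1, saline 2, PFF 1. Cox6a2 stands between 827 and 1237 CPM in plasmacytoid dendritic cells (pDC) and below 5 CPM elsewhere, and Cox7a1 above 230 CPM in epithelium only.

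Myeloid cells, tested in the same fit, had 28 members higher than T cells and 6 lower, where 22.5% of all genes were higher and 27.3% lower. The median log2 was 0.31 (all genes -0.21). On plain CPM the median was 0.11, with 53 of 85 members above 0. Complex IV had 10 higher and 0 lower, complex V 7 and 0, complex III 4 and 0, complex I 7 and 4, and assembly 0 and 2. Cox5a, a nuclear subunit of complex IV, had 280, 330 and 295 CPM against 159, 198 and 150 CPM in T cells (log2 0.99). Ndufa8, an accessory subunit, had 94.8, 114 and 120 CPM against 54.6, 65.4 and 51.7 CPM (log2 1.10). Other rises were those of Ndufa4 (1.09), Ndufb1-ps (0.92), Cox7a2l (0.90), Atp5l (0.87), Uqcrfs1 (0.81) and Uqcr11 (0.80). Ndufs1, the large iron-sulfur subunit that carries electrons from NADH, had 34.9, 27.5 and 34.9 CPM in myeloid cells and 60.4, 51.0 and 60.4 CPM in T cells (log2 -0.63). Ndufa10 fell by 0.73, Ndufa5 by 0.60, Ndufs4 by 0.52, Ndufaf5 by 0.85 and Ndufaf2 by 0.73.

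RLE scaling moved the median of all genes from -0.21 to -0.01 in this comparison, and then 46 members were higher and 3 lower. It moved that median from -0.24 to -0.07 for plasmacytoid cells and from 0.04 to 0.16 for epithelium. The count of called members in myeloid cells also rested on single libraries, with 53 higher without saline 1, 9 without saline 2 and 5 without PFF 1, and was 18 in cells with no UMI of the epithelial markers. Around these genes, glycolysis had 8 of 12 higher and 2 lower in myeloid cells (Hk2 5.79, Hk1 -2.07). Fatty acid oxidation had 2 higher and 5 lower (Hadh -1.41), the regulators 0 higher and 5 lower (Ppargc1b -2.21) and the mitochondrial subunits 3 higher. Of all genes 22.5% were higher and 27.3% lower in the main test.

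Plasmacytoid dendritic cells had 16 members higher and 4 lower than T cells (all genes 17.9% higher, 23.1% lower; median 0.25 for members, -0.24 for all). After Cox6a2 the largest rise was that of Uqcr11, with 219, 224 and 221 CPM against 117, 115 and 88.0 CPM in T cells (log2 1.06 ± 0.23). Ndufs8, a core iron-sulfur subunit of complex I, rose by 0.90, Atp5c1, the rotating gamma subunit of ATP synthase, by 0.83, Atp5g2 by 0.78, Ndufa4 by 0.76, Uqcrfs1 by 0.73 and Ndufc1 by 0.70. Ndufa10 had 51.9, 63.3 and 57.3 CPM in plasmacytoid cells and 120, 117 and 105 CPM in T cells (log2 -1.01 ± 0.20). Ndufaf5 fell by 0.89, Ndufaf2 by 0.70 and Ndufs4 by 0.54. Without saline 1, saline 2 or PFF 1 the count of higher members was 40, 5 and 2, and in cells with no UMI of the epithelial markers it was 4. Mitochondrial subunits were higher in 7 of 13, and 4 of 12 fatty acid oxidation genes were lower.

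B cells had 6 members higher and 6 lower than T cells (all genes 17.2% and 21.0%; median 0.13 for members, -0.13 for all). Atp5g2 had 544, 367 and 349 CPM against 262, 230 and 189 CPM in T cells (log2 0.92 ± 0.22). Ndufa4 had 281, 272 and 289 CPM against 160, 168 and 147 CPM (log2 0.87 ± 0.22). The other rises were Uqcrfs1 (0.68), Ndufs8 (0.63), Ndufb1-ps (0.61) and Atp5b, the catalytic beta subunit (0.51). Ndufa10 was again lower, at 91.6, 57.2 and 55.99 CPM in B cells (log2 -0.80 ± 0.19), with Ndufv3 (-0.72), Ndufaf7 (-0.72), Ndufa13 (-0.66), Ndufaf2 (-0.62) and Cox6a2, which was at 0 in B cells. In T cells Cox6a2 was itself low, at 2.33 CPM pooled over the libraries. Over all wells 72.4% of its T cell UMIs were in T cells with a UMI of Siglech, whose part in the call was not tested. Without saline 1, saline 2 or PFF 1 the count of higher members was 13, 2 and 1, and in cells with no UMI of the epithelial markers it was 1. The mitochondrial subunits were higher in 7 of 13.

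Dividing T cells had more of these transcripts than the other T cells. Of the 85 members 23 were called higher and 0 lower by edgeR (all genes 9.39% and 9.01%), DESeq2 called 38 higher and 0 lower, and the median was 0.37 (all genes -0.19). By complex, 7 rose in complex I, 3 in III, 5 in IV, 8 in V and none of the 8 assembly genes. Cox5b, a zinc-binding nuclear subunit of complex IV, had 477, 469 and 375 CPM in cycling T cells and 201, 232 and 177 CPM in the other T cells (log2 1.06 ± 0.19). Cox7a2 had 535, 545 and 438 CPM against 245, 254 and 218 CPM (log2 1.02 ± 0.19), and Ndufa4 369, 349 and 276 CPM against 160, 168 and 147 CPM (log2 1.00 ± 0.21). Atp5o rose by 0.96, Atp5j by 0.87, Atp5g3 by 0.86, Ndufab1 by 0.84 and Atp5b by 0.81. None of the 13 mitochondrially encoded subunits was called (median 0.07), while glycolysis had 5 of 12 higher (Tpi1 1.21, Gapdh 1.15). Without saline 2, and likewise without PFF 1, 3 members were called higher, and in cells with no UMI of the epithelial markers 2 were.

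Among T cell subsets, gamma-delta T cells (2525, 2110 and 6152 cells) were compared with CD8 alpha-beta T cells (41, 22 and 162 cells), and of 84 members tested 0 were higher and 8 lower in gamma-delta cells (all genes 5.38% and 6.58%; median -0.18 for members, 0.03 for all). Of the 84 fold changes 17 were above 0, and on plain CPM 32 were, with a median of -0.06. Ndufa4 had 154, 171 and 148 CPM in gamma-delta cells and 202, 196 and 272 CPM in CD8 alpha-beta cells (log2 -0.73 ± 0.13, adjusted p 0.000429, edgeR). Atp5c1 had 174, 186 and 157 CPM against 210, 214 and 209 CPM (log2 -0.38 ± 0.10). These 2 genes did not overlap between the subsets. Ndufab1 (-0.52), Ndufs3 (-0.44), Ndufb5 (-0.42), Atp5g2 (-0.40) and Uqcrb (-0.38) were also called lower with overlapping values. Cox6a2 was called lower (-3.71) on 0, 0 and 15.5 CPM in CD8 alpha-beta cells, where the 5 plasmacytoid markers summed to 734 CPM, against 319 CPM in gamma-delta cells; their part in it was not tested. The count of lower members was 3 without saline 1, 32 without saline 2 and 0 without PFF 1, and DESeq2 called 2.

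CD8 alpha-alpha T cells (775, 642 and 2234 cells) showed no called difference from gamma-delta cells. By edgeR 0 of 84 members were called, 0 had an unadjusted p below 0.05 and DESeq2 called 0, where 4.16% of all genes were called in either direction. The median log2 was 0.04. Ndufa4 in CD8 alpha-alpha cells, at 167, 162 and 138 CPM, overlapped its gamma-delta values. In simulated counts of this comparison 92% of genes changed 2-fold were recovered. The members' fold changes ran from -0.14 to 0.57 (log2), and changes smaller than 2-fold were not simulated. The 4 gamma-delta marker genes summed to 1125 CPM in CD8 alpha-alpha, 2817 CPM in gamma-delta and 708 CPM in CD8 alpha-beta cells. Mixing of the subsets was not tested.

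After PFF no member was called in any of the 4 classes tested. In T cells, edgeR called 0 of 85 members (9 had an unadjusted p below 0.05, DESeq2 called 0, all genes 0.0127%). In B cells it called 0 of 81 (0 unadjusted, DESeq2 0, all genes 0.0%), in myeloid cells 0 of 84 (0 unadjusted, DESeq2 0, all genes 0.281%) and in epithelium 0 of 84 (0 unadjusted, DESeq2 0, all genes 0.0286%). With a single PFF library and 1 residual degree of freedom the test had little reach. In simulated counts it recovered 78% of 4-fold changes in T cells, 38% in B cells, 38% in myeloid cells and 2% in epithelium.

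In T cells the members lay lower in PFF 1. The median log2 was -0.18 (all genes -0.02), 13 of 85 were above 0, and in 59 of 85 (69.4%) the PFF level was below both saline libraries, as in 33.1% of all genes. Atp5k, the small e subunit of ATP synthase, had 223 and 197 CPM in saline 1 and 2 and 143 CPM in PFF 1 (log2 -0.52). Atp5md, another small ATP synthase subunit, had 218, 196 and 141 CPM (-0.52), and Ndufb1-ps 316, 283 and 207 CPM (-0.51). Of the members at 20 CPM or more and above both saline libraries, the highest were Ndufaf5 (0.16), Ndufs1 (0.15) and Ndufs4 (161, 160.3 and 166 CPM, 0.07), and the adjusted p was 1.00 for each of these (edgeR). The median against saline 1, of the same batch, was -0.10, against saline 2 it was -0.28 and against the shared saline wells -0.03. Saline 2 against saline 1 gave 0.17, a difference between saline libraries that lies between the sizes of these 2 values.

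In epithelium the median was 0.25 (all genes 0.04) and 53 of 84 members (63.1%) were above both saline libraries, as were 35.3% of all genes. The epithelial median was 0.44 against saline 1, 0.03 against saline 2 and -0.35 against the shared wells, and saline 2 against saline 1 gave 0.41. The epithelial cells had medians of 16491, 9405 and 2781 UMIs in saline 1, saline 2 and PFF 1, and the part of depth was not tested. Goblet cells, where members took a smaller share, also differed in weight. They supplied 15195 of 608001 epithelial UMIs in saline 1, 1594550 of 11250881 in saline 2 and 1733727 of 7880326 in PFF 1. The part of this cell mix in the PFF values was not tested. Ndufab1 had 174, 316 and 366 CPM (log2 0.58), Ndufc2, an accessory subunit of complex I, 112, 209 and 238 CPM (0.57) and Ndufb11, another, 123, 267 and 285 CPM (0.54), all with saline 2 near PFF 1. Of the members at 20 CPM or more and below both saline libraries on the TMM-scaled values, Ndufa1 (-0.21; on plain CPM 428, 312 and 314), Cox7a1 (-0.10) and Ndufa6 (-0.08) were the lowest, and under 20 CPM Cox6b2 stood at -0.86.

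In B cells the median was 0.14 (all genes -0.01), with 40 of 81 members above both saline libraries (49.4%, against 23.2% of all genes). Ndufs7, a core iron-sulfur subunit of complex I, had 45.8, 77.2 and 99.2 CPM (log2 0.63), Ndufa9, an accessory subunit, stood at 0.60, and Ndufab1 had 51.5, 77.2 and 99.6 CPM (0.59). Of the members at 20 CPM or more and below both saline libraries, the lowest were Ndufb1-ps (-0.40), Ndufv1 (-0.35) and Atp5g2 (-0.30). Against the shared wells the B cell median was -0.10. In myeloid cells the median was 0.09 (all genes 0.01), made up of 0.46 against saline 1 and -0.15 against saline 2. There 21 of 84 members were above both saline libraries, as were 29.1% of all genes, and 14 (16.7%) were below both, as were 24.6% of all genes. Among those at 20 CPM or more, Ndufaf8 (-0.41), Ndufaf3 (-0.35) and Ndufaf7 (-0.27) were the lowest of the members below both, and Ndufc2 (0.37), Ndufab1 (0.37) and Ndufs4 (0.33) the highest of those above both.

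The difference between the PFF effect in a class and that in T cells was tested as an interaction over 15983 genes, with 0 members called for B cells (all genes 0.0%), 0 for myeloid cells (0.0688%) and 0 for epithelium (0.0751%), and 0 members at an unadjusted p below 0.05 in each (edgeR). The median interaction of the members was 0.50 for B cells (all genes 0.21), 0.33 for myeloid cells (0.06) and 0.41 for epithelium (0.02). Of the pathway lists around them, including the 13 mitochondrially encoded subunits, no gene was called after PFF in any of the 4 classes.

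**Figure D5:**
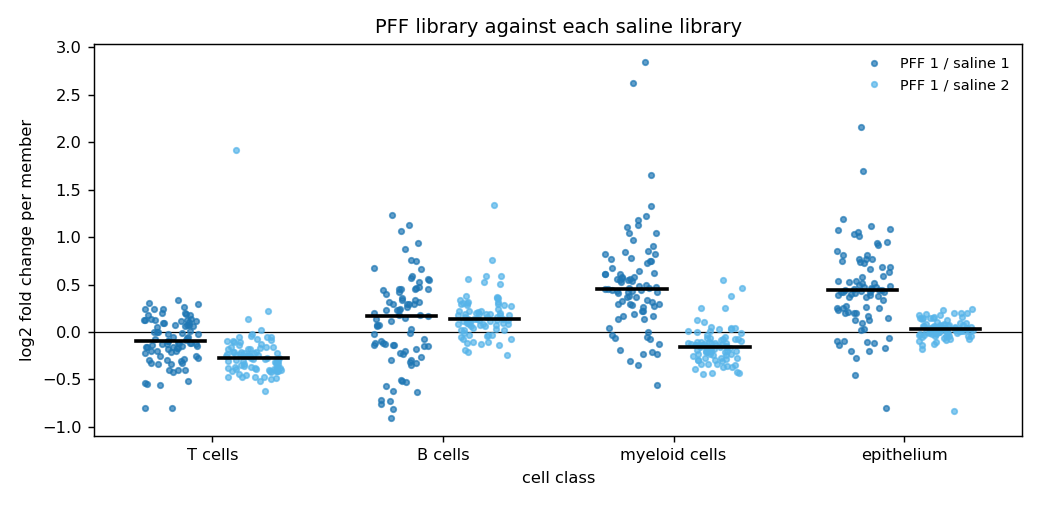
Log2 fold change of each member in PFF 1 against saline 1 and against saline 2, in 4 cell classes; points are genes and black lines are medians. The medians against both saline libraries lie below 0 in T cells (-0.10 and -0.28) and have opposite signs in myeloid cells (0.46 and -0.15).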

How the data were processed

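The deposited matrices hold whole-number UMI counts by gene and barcode, made by the authors with Cell Ranger 7.0.0, per the file headers, on mm10, per the submitters' processing notes. The annotation release is not given in the sources used here. How reads of near-identical processed pseudogenes were counted is also not given, so levels of members with such copies are uncertain. Depth was 20788920, 64940311 and 142955760 UMIs in saline 1, saline 2 and PFF 1.

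The cell filter asked for 500 UMIs, 200 genes and no more than 15% mitochondrial UMIs. Classes were set by marker gates chosen after the cells were seen: at least 2 Cd3 genes and 3 Cd3 UMIs for T cells, 3 markers for B cells, 3 for plasmacytoid cells, 4 for epithelium and 3 for myeloid cells. Plasmacytoid and myeloid cells also had to hold fewer than 2 Cd3 UMIs. Myeloid cells further needed 2 markers other than Tyrobp and Fcer1g, and no UMI of Ncr1, Klrb1c or Eomes. Cells with exactly the minimum numbered 191 of 26327 T cells, 135 of 1062 B cells, 192 of 1931 epithelial cells and 47 of 527 myeloid cells. No doublet caller was run. In no class were 249, 352 and 666 cells, and 26, 125 and 239 met the rules of 2 classes.

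The UMIs of a class in a library were added up, and edgeR 4.0.16 was run on these sums (TMM, filterByExpr, quasi-likelihood test, Benjamini-Hochberg adjustment over all genes), with the library as a block between classes. DESeq2 1.42.0 was an alternative. Each fit was tested on simulated data. Named members were, per class comparison, the 8 largest called rises and falls at 20 CPM or more, per PFF comparison the 3 highest and 3 lowest at 20 CPM or more that lie above both saline libraries or below both after TMM scaling (counts of such members use plain CPM), the 2 most abundant members per complex, and fixed isoform sets. Members and lists were chosen with earlier results of these data known. The comparisons of plasmacytoid cells, of gamma-delta with CD8 alpha-alpha T cells, of enterocytes with goblet cells, the interaction and the values against each saline library were added after seeing the data.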

Additional observations from a re-analysis of the deposited data

Results flagged for a closer look

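The members' median PFF effect differed in sign between cell classes. It was -0.18 (log2) in T cells, 0.14 in B cells and 0.25 in epithelium. The interaction with T cells had a members' median of 0.50 for B cells and 0.41 for epithelium, but no member was called by edgeR in either (0 at an unadjusted p below 0.05). Saline 2 against saline 1 gave 0.17 in T cells, -0.01 in B cells and 0.41 in epithelium. Against the shared saline wells the medians were -0.03, -0.10 and -0.35.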

How the results depend on the processing

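Members higher in epithelium than in T cells numbered 76 to 80 (78 in the main test) over all alternatives, and members higher in enterocytes than in goblet cells 74 to 79 (78). The summed shares moved by less than the SD between libraries under each alternative run. Other counts moved by more than 1.5 times, and the cause was not tested. For myeloid cells (28 higher) the count was 46 with RLE, 17 with no low-count filter, 55 with DESeq2, 18 in cells with no UMI of the epithelial markers and 6 with Leiden clusters, and 5 to 53 with a library left out. For B cells (6) it was 11 with RLE, 3 unfiltered, 18 with DESeq2, 10 at a limit of 10% mitochondrial UMIs, 1 without epithelial UMIs and 13 with the shared wells as a further library, and 1 to 13 with a library left out. For cycling T cells (23) it was 14 unfiltered, 38 with DESeq2 and 2 without epithelial UMIs, and 3 to 24 with a library left out. For plasmacytoid cells (16) it was 28 with RLE, 10 unfiltered, 42 with DESeq2 and 4 without epithelial UMIs, and 2 to 40 with a library left out. For gamma-delta against CD8 alpha-beta cells (8 lower) it was 13 with RLE, 2 with DESeq2, 26 with a stricter gate, 3 with Leiden clusters and 18 with the shared wells, and 0 to 32 with a library left out. After PFF no member was called in the main test. Some were called with the saline files as deposited (T cells and B cells) and with Leiden clusters (myeloid cells). The deposited files hold the shared wells in both saline libraries, so these are not separate samples there. The share of all genes called under these settings is not given here.

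Of the values of single named members under an alternative, 1054 kept direction and call, 177 lost the call, 7 gained it and 6 changed sign. The sign changes were Ndufa5 in myeloid cells (0.0055 without epithelial UMIs), Ndufaf5 in T cells after PFF (-0.26) and Ndufab1 in myeloid cells after PFF (-0.18) under the same setting, and, with the files as deposited, Ndufs4 after PFF in T cells (-0.0054) and myeloid cells (-0.067) and Ndufab1 in epithelium (-0.004021). No paired analysis was possible because the saline and PFF groups share only replicate number 1. The comparisons of plasma with B cells and of CD8 alpha-beta with CD4 T cells were not run, for lack of cells in the saline libraries. In simulated counts of the PFF comparisons, 0% of 2-fold changes were recovered in epithelium, 3% in myeloid cells, 7% in B cells and 39% in T cells.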

Other observations

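Plasma cells were too few to test, with 2, 3 and 8 cells in saline 1, saline 2 and PFF 1. Their members' share was 0.814%, 1.36% and 0.671% of UMIs. Ndufa4 stood there at 436, 503 and 242 CPM. Cox7a2l stood at 96.9, 87.4 and 61.6 CPM, under every B cell value of these libraries, but on only 2, 4 and 15 UMIs.

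CD4 T cells, with 5, 9 and 71 cells, had shares of 1.25%, 1.34% and 1.51%. Their Cox7a2l levels were 301, 328 and 327 CPM. Within myeloid cells, macrophages were set by the C1q genes, Csf1r, Adgre1 and Cd68, not all of them required. They numbered 10, 55 and 114 cells in saline 1, saline 2 and PFF 1, and dendritic cells 10, 45 and 41. Macrophages had shares of 1.14%, 1.60% and 1.52% and dendritic cells 1.45%, 1.67% and 1.496%. Cox7a2l was 349, 446 and 362 CPM in the macrophages and 369, 419 and 453 CPM in the dendritic cells, and Ndufa4 was 204, 292 and 360 CPM and 333, 326 and 323 CPM.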
